A study of Mus musculus with 2 samples.

Results

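Mitochondrial carriers are the proteins of the SLC25 family, which sit in the inner mitochondrial membrane and move nucleotides, amino acids, carboxylates, cofactors and carnitine esters between the cytosol and the matrix. The uncoupling proteins belong to the same family, and Ucp1, the carrier that makes heat in brown fat, gave them their name. A heart muscle cell depends on these carriers, because most of its ATP is made in the matrix and used outside it. The gene list of the count tables used here held 48 genes with a symbol of the form Slc25a plus a number, or Ucp1, Ucp2 or Ucp3. All 48 were taken, and 42 of them had at least 20 unique molecular identifiers (UMIs) over both sections. The other 6 were Ucp1, Slc25a21, Slc25a36, Slc25a41, Slc25a53 and Slc25a54. Of 19465 genes listed, 15236 reached 20 UMIs. The filter was on the sum of both sections and used no ratio. The family itself was chosen with earlier results of these data known. From these sections the study had already reported Ucp3 and Slc25a11 among genes lower in transgenic cardiomyocytes. Slc25a3, the phosphate carrier, and Slc25a23 are not among the 48 and were not analysed here.

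The data come from Visium CytAssist, an assay that counts gene-specific probes on barcoded spots laid over a formalin-fixed paraffin-embedded (FFPE) section. Both hearts carried 1 copy of α-MHC-MerCreMer, a tamoxifen-inducible Cre driven by a heart muscle promoter, and both mice received a single intraperitoneal tamoxifen dose of 80 mg/kg. The transgenic mouse also carried the human TOP2B LSL allele at Rosa26, from which topoisomerase II β is made once Cre removes a stop cassette. The methods give an age of 6 weeks at this dose, and the time from dose to harvest of these hearts was not given in the sources used here.

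With 1 section for each genotype, the comparison has no replicates and was not tested. The control section had 1256 spots with 14376300 UMIs, and the transgenic section had 924 spots with 12953389 UMIs, 1 of them without a UMI. Of these spots, 11 control spots and 1 transgenic spot lay apart from the main body of tissue, and leaving them out did not change how many carriers were at least 2-fold lower or higher. Levels are UMIs per 1000000 of the section (CPM), and changes are log2 ratios of transgenic over control. Ranges in parentheses are 95% intervals that cover counting error only. Each section was also split into 4 quadrants, whose range is the spread inside a section and not between animals. The sections shared 725 spot barcodes, which are fixed positions on the array and not shared cells. The median log2 ratio of all 15236 genes was 0.20. Mouse Top2b had 1531 and 1318 UMIs, a log2 ratio of -0.07, and whether its probes detect the human transgene is not given in the sources used here, so these counts do not check the label. Heart muscle genes were present in both sections. The 11 cardiomyocyte markers made up 4.47% of control and 3.75% of transgenic UMIs, with a median log2 ratio of -0.42. Of these markers, 8 were below 0 and 3 at least 2-fold lower, with the lowest at -1.07 and Tnnt2 highest at 0.17. Fewer cells of a type and less RNA per cell cannot be told apart in such sums.

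As a group, the carriers were lower in the transgenic section. Together they held 2.04% of control UMIs and 1.20% of transgenic UMIs. Control quadrants ranged from 1.97% to 2.10% and transgenic quadrants from 0.944% to 1.49%, so the quadrants did not overlap. Most of these UMIs belong to Slc25a4, and without it the share was 0.367% against 0.255%. The median log2 ratio of the 42 carriers was -0.11, which is 0.31 below the median of all genes on that scale. Of the 42, 24 had a log2 ratio below 0 and 18 above 0, or 27 and 15 when scaled by TMM or DESeq2 factors. Without these factors, 5600 of all 15236 genes were below 0 and 9636 above 0.

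The group was not shifted evenly. At least 2-fold lower were 10 of 42 carriers (23.8%), against 5.61% of all genes. At least 2-fold higher were 3 of 42 (7.14%), against 13.7% of all genes. In 15 of 42 carriers (35.7%) the 4 transgenic quadrants all lay below the 4 control quadrants, which held for 13.1% of all genes. The opposite order was seen in 9 carriers (21.4%) and in 30.4% of all genes. The lower values were found mainly among the more abundant carriers. The 21 more abundant carriers had a median log2 ratio of -0.62, and 9 of them were at least 2-fold lower. The 6150 other genes in that CPM range had a median of 0.19, with 6.26% at least 2-fold lower. The 21 less abundant carriers had a median of 0.18, near the 0.25 of 8102 other genes in their range.

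**Figure D1:**
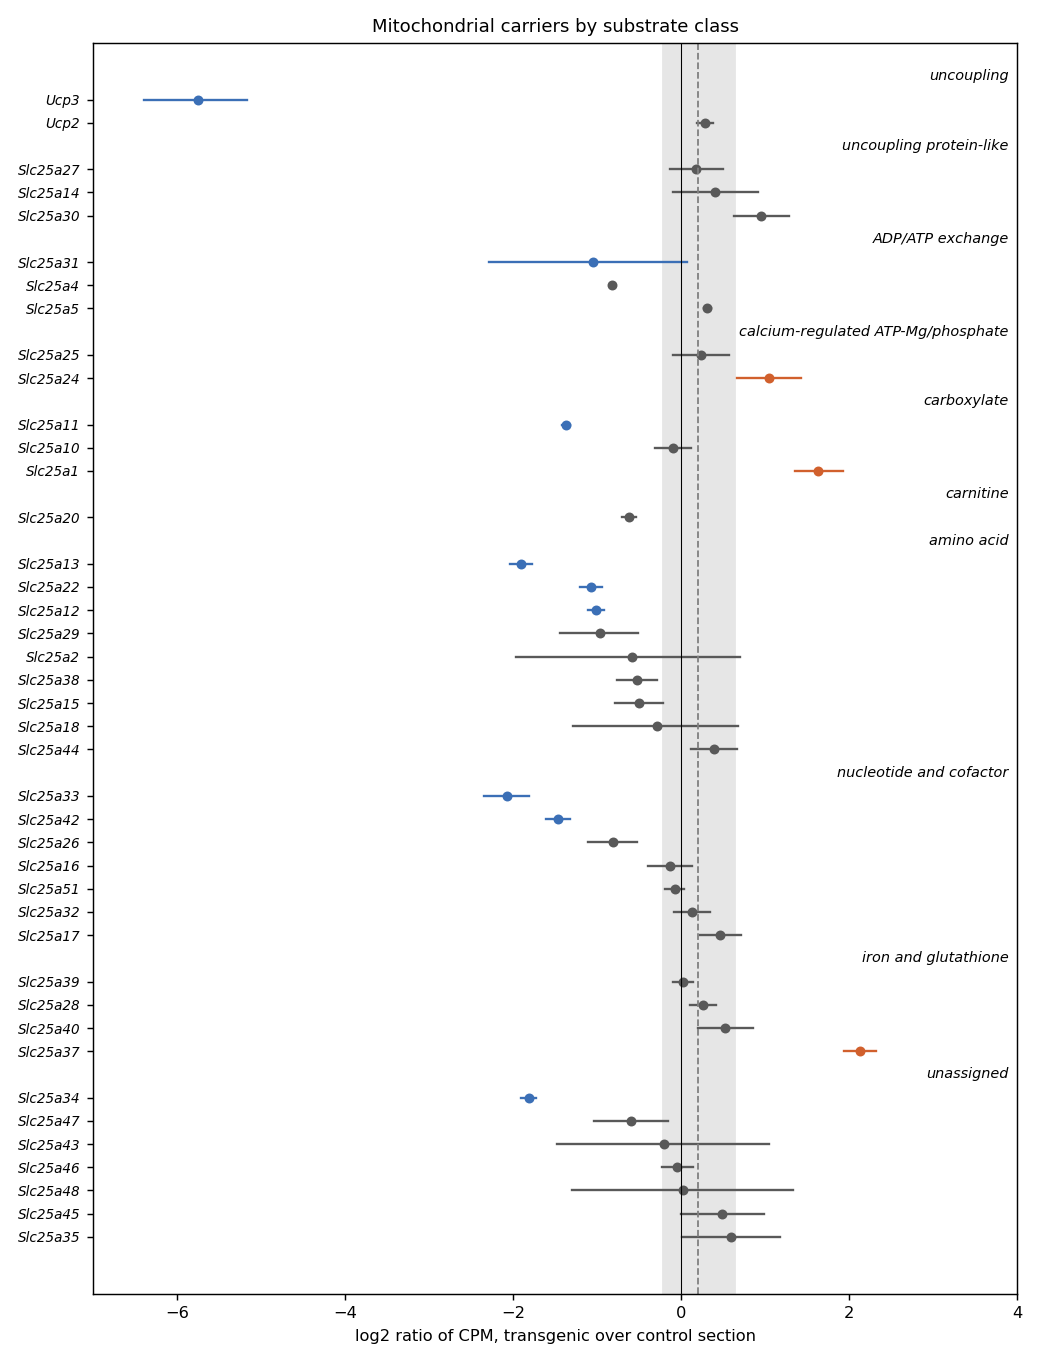
Log2 ratio of transgenic over control CPM (horizontal axis) for 41 of the 42 carriers, grouped by substrate class, with lines for the 95% interval of counting error. Blue marks at least 2-fold lower, orange at least 2-fold higher, the dashed line is the median of all genes at 0.20 and the grey band their middle 50%, and Ucp3 stands alone at -5.74.

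**Figure D2:**
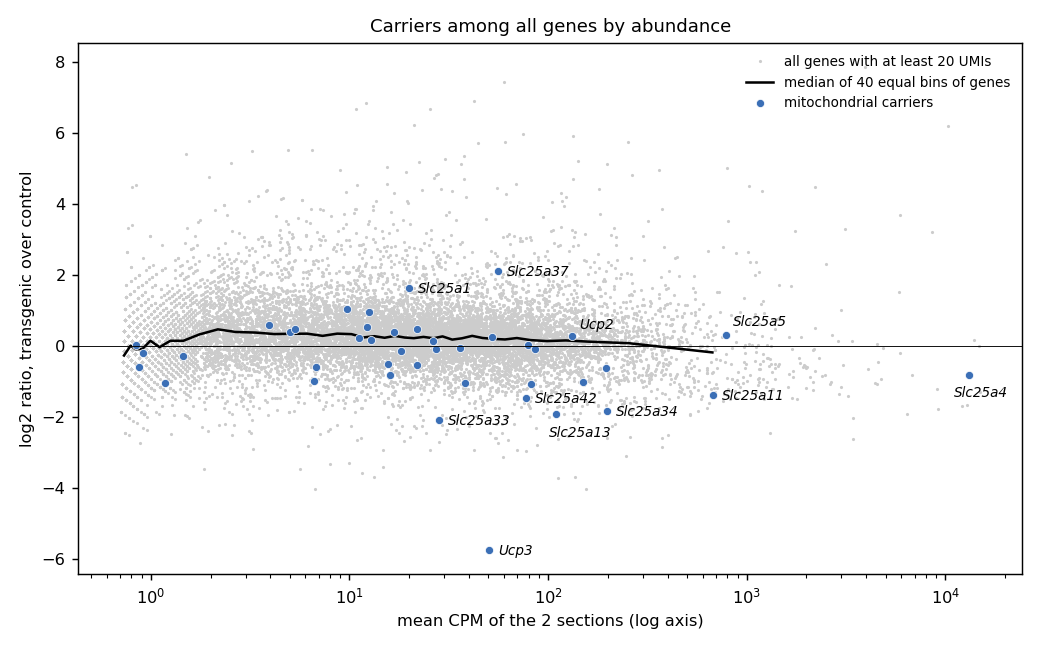
Log2 ratio of transgenic over control against mean CPM of both sections (log axis), with 1 grey point for each of 15236 genes, the running median in black and the 42 carriers in blue. Ucp3 lies below all other points, and Slc25a33, Slc25a13, Slc25a34 and Slc25a42 lie near the lower edge of genes of like abundance, whereas Slc25a4 lies among them.

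The uncoupling proteins differed the most from each other. Ucp3, the member found mainly in skeletal muscle and heart and linked to the handling of fatty acids, had 92.8, 96.1, 103 and 105 CPM in the control quadrants. In the transgenic quadrants it had 1.71, 1.15, 2.75 and 1.72 CPM. The highest transgenic quadrant was thus far below the lowest control quadrant, and over whole sections Ucp3 was 53.5-fold lower. The 100 genes of most similar mean CPM all had a higher log2 ratio, with a median of 0.22. No transgenic spot held more than 2 Ucp3 UMIs.

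Ucp2, which is found in many cell types including macrophages, behaved differently. Its control quadrants held 143, 109, 89.1 and 137 CPM and its transgenic quadrants 131, 173, 126 and 151 CPM, so they overlapped. Its log2 ratio was 0.29 (0.19 to 0.38), close to the 0.16 median of the 100 nearest genes. Ucp3 accounted for 45.4% of Ucp2 and Ucp3 UMIs in control tissue (43.7% to 47.2%) and for 1.26% in transgenic tissue (0.809% to 1.87%). This share does not depend on how the sections are scaled, and it ranged from 39.4% to 53.6% over control quadrants and from 0.659% to 2.14% over transgenic quadrants. Ucp1 had 12 and 6 UMIs. Of the other 3 brown fat markers, Elovl3 had 15 and 8 UMIs, while Cidea had 372 and 1457 and Dio2 40 and 341. The adipocyte marker genes had at most 16 UMIs each in either section.

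The promoters of these neighbors on chromosome 7 are printed because Ucp3 and Ucp2 lie next to each other, with no annotated gene between them in RefSeq, and yet had such unequal ratios. The Slc25a34 promoter is printed as the other carrier of the at least 2-fold lower group with the same motif. Each is the 250 bases before the RefSeq start site on GRCm38.p6, while the submitters' processing notes name GRCm39. Capitals mark AGGTCA, or TGACCT on the other strand, a core motif that PPAR and other nuclear receptors can bind.
Ucp3 (chr7:100472741-100472990, plus strand): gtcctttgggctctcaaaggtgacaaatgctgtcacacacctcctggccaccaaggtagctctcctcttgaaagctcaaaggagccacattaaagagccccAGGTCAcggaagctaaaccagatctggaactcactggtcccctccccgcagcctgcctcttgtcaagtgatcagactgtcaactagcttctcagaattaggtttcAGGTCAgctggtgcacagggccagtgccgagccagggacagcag
Ucp2 (chr7:100493108-100493357, plus strand): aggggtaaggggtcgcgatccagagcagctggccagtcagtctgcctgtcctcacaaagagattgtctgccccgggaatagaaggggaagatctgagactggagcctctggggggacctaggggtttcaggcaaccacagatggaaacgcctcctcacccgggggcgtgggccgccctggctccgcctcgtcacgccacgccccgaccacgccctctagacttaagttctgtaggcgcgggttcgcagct
Slc25a34 (chr4:141623835-141624084, minus strand): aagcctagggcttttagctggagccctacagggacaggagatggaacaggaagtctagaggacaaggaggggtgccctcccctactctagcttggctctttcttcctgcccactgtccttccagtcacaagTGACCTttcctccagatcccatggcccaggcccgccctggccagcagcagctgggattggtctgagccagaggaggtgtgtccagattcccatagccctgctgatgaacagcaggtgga

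In the Ucp3 window the motif starts 149 and 44 bases before the start site, and the Ucp2 window holds none. GC content was 54.8% for Ucp3 and 63.6% for Ucp2. Over 300-base windows that also include 50 bases after the start, 32 of the 42 carriers had a RefSeq entry. AGGTCA or TGACCT was found on either strand in 5 of these 32 (15.6%), namely Ucp3, Slc25a34, Slc25a39, Slc25a45 and Slc25a47, and in 15.5% of 11825 genes of this data set with an entry. Of the 9 at least 2-fold lower carriers with an entry, 2 held it, as did 3 of the other 23. The share of carriers with this motif was thus close to that of all genes. The GC box GGGCGG or its reverse CCGCCC was found in 27 of 32 carriers (84.4%) and in 62.5% of genes. CCAAT or ATTGG was found in 15 of 32 (46.9%) and 41.9%, and TATAAA or TTTATA in 1 of 32 and 10.7%. Such matches are letters in a window and not measured binding sites.

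**Figure D3:**
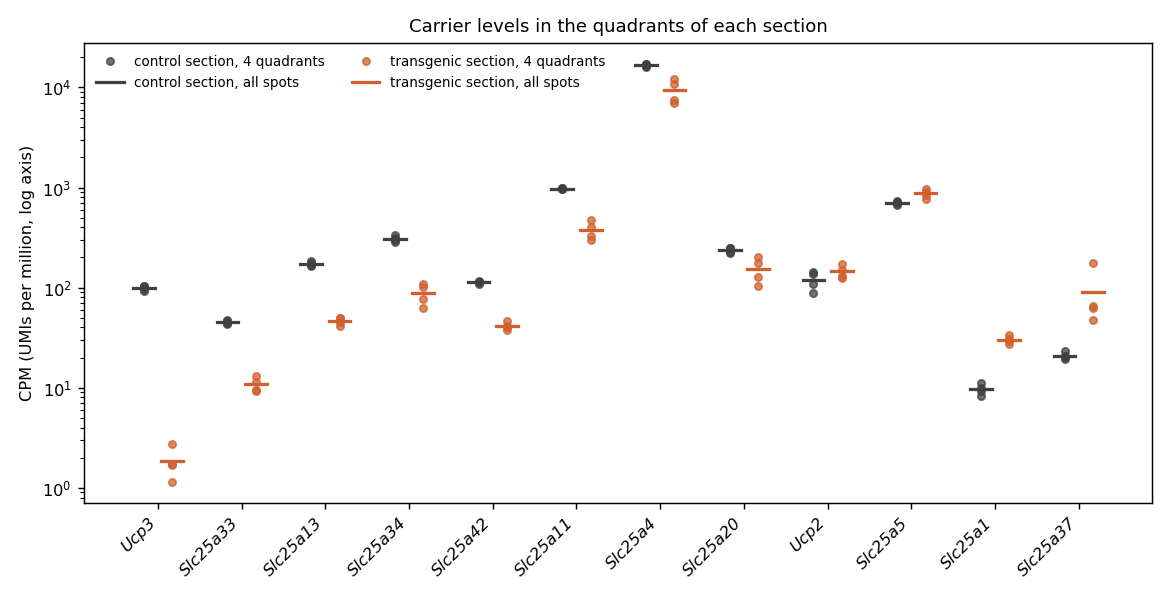
CPM on a log axis in each of the 4 quadrants (points) and over all spots (bars) of the control (grey) and transgenic (orange) section for 12 carriers. Quadrants of the 2 sections are separate for every carrier shown except Ucp2, and transgenic Slc25a37 has 1 quadrant at 178 CPM, well above its other 3.

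The ADP/ATP carriers exchange matrix ATP for cytosolic ADP. Slc25a4 (ANT1), the isoform of heart and skeletal muscle, was the most abundant carrier, with 16736 CPM in control and 9453 CPM in transgenic tissue, which is -0.82 as a log2 ratio. Its control quadrants ran from 16016 to 17296 CPM and its transgenic quadrants from 7057 to 12118 CPM, without overlap. This difference was less unusual for its abundance than that of Ucp3, since 34 of the 100 nearest genes had lower ratios and their median was -0.52. Slc25a5 (ANT2), the isoform of many other tissues, was higher, with 719, 732, 667 and 694 CPM in control and 900, 777, 964 and 845 CPM in transgenic quadrants. Its log2 ratio was 0.31 (0.27 to 0.35), where the 100 nearest genes had a median of -0.21. Slc25a4 therefore made up 96.0% of ADP/ATP carrier UMIs in control and 91.5% in transgenic tissue. This share ran from 95.7% to 96.2% over control quadrants and from 89.9% to 92.6% over transgenic quadrants. Slc25a31, the testis isoform, had 23 and 10 UMIs, and its interval included 0 (-2.29 to 0.08).

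Genes that work beside the ADP/ATP carriers were lower as well. Of 4 such genes, all had a log2 ratio below 0 and 3 were at least 2-fold lower. Ppif, cyclophilin D of the permeability transition pore, was at -1.77 (-1.85 to -1.69). Ckmt2, the mitochondrial creatine kinase of muscle, was at -1.24 (-1.26 to -1.21). Ak4, a mitochondrial adenylate kinase, was at -1.05 (-1.33 to -0.78). For comparison, 71 oxidative phosphorylation genes had a median of -0.87, with 67 below 0 and 23 at least 2-fold lower.

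The amino acid carriers, the largest class, had the most members below 0, 8 of 9, and 3 were at least 2-fold lower. Their median of -0.59 was the value of Slc25a2, which had 15 and 9 UMIs and an interval that included 0 (-1.96 to 0.70). Slc25a18, with 23 and 17 UMIs, also had an interval that included 0 (-1.28 to 0.68). Slc25a12 (aralar) and Slc25a13 (citrin) are the calcium-regulated aspartate/glutamate carriers of the malate-aspartate shuttle, which brings the electrons of cytosolic NADH into mitochondria. Slc25a13 had 175, 166, 186 and 168 CPM in control and 45.5, 41.4, 49.7 and 49.5 CPM in transgenic quadrants. Its log2 ratio was -1.90 (-2.03 to -1.77), and 98 of the 100 nearest genes had a higher ratio. Slc25a12 had 194, 214, 188 and 202 CPM in control and 108, 86.3, 118 and 81.1 CPM in transgenic quadrants, a log2 ratio of -1.01 (-1.11 to -0.92). The 2 isoforms thus did not keep their proportion. Slc25a13 made up 46.5% (45.2% to 47.9%) of their UMIs in control and 32.0% (29.9% to 34.1%) in transgenic tissue. Its share was 43.7% to 49.7% over control quadrants and 29.6% to 37.9% over transgenic quadrants.

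The third carrier of this shuttle, Slc25a11, exchanges malate for 2-oxoglutarate. It had 964, 978, 987 and 971 CPM in control and 405, 298, 469 and 326 CPM in transgenic quadrants, and 91 of the 100 nearest genes had a higher ratio. The 4 enzymes of the shuttle were all below 0, with Mdh1 at -1.34, Got2 at -0.93, Got1 at -0.77 and Mdh2 at -0.52. Among the other amino acid carriers, the glutamate carrier Slc25a22 was at -1.07 (-1.20 to -0.94), and Slc25a44, a carrier of branched-chain amino acids, was the only one above 0, at 0.39 (0.11 to 0.66).

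The carboxylate class was divided. Slc25a1, the citrate carrier that supplies cytosolic acetyl-CoA for lipid synthesis, went the other way from Slc25a11. It had 9.37, 9.85, 8.33 and 11.1 CPM in control and 29.1, 30.5, 27.5 and 33.7 CPM in transgenic quadrants, a log2 ratio of 1.64 (1.35 to 1.93). With each spot thinned to 8134 UMIs, Slc25a1 was seen in 7.62% of control and 21.2% of transgenic spots. The dicarboxylate carrier Slc25a10 was at -0.09 (-0.31 to 0.12).

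Slc25a20 carries acylcarnitines into the matrix for fatty acid oxidation. It had 247, 220, 252 and 228 CPM in control and 177, 104, 204 and 129 CPM in transgenic quadrants, and its log2 ratio was -0.62 (-0.70 to -0.54). Other genes of carnitine transport and use were divided. Slc22a5, the carnitine transporter of the plasma membrane, Crat and Cpt2 were at -0.99, -0.98 and -0.90. Cpt1b, the muscle form of the outer membrane carnitine palmitoyltransferase, was at -0.10, and Cpt1a, the liver form, was at 0.89 (0.80 to 0.98). The 13 genes listed as PPAR-alpha targets, which do not include Ucp3, had a median of -0.12 and went both ways. Of these, 9 were below 0 and 4 above 0, and the highest was at 3.20. Fabp3, the fatty acid-binding protein of heart muscle, was lowest at -1.22.

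Of 8 nucleotide and cofactor carriers, 6 were below 0, or 7 with TMM or DESeq2 factors, and 3 were at least 2-fold lower, with a median of -0.47. Slc25a33, a pyrimidine nucleotide carrier, had 47.4, 43.6, 46.1 and 44.7 CPM in control and 9.23, 9.49, 11.5 and 13.1 CPM in transgenic quadrants. Its log2 ratio of -2.07 (-2.35 to -1.81) was below that of 99 of the 100 nearest genes. Slc25a42, which brings coenzyme A into the matrix, was at -1.46 (-1.61 to -1.32), and its quadrants ran from 110 to 117 CPM in control and from 37.7 to 46.7 CPM in the transgenic section. Highest of the class was Slc25a17, a peroxisomal carrier, at 0.47 (0.23 to 0.71). The lowest carrier without an assigned substrate, Slc25a34, had 302, 288, 335 and 312 CPM in control and 76.6, 63.0, 109 and 102 CPM in transgenic quadrants, a log2 ratio of -1.81 (-1.91 to -1.72).

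In some classes no member was below 0. These classes held 2 to 4 genes, and 9636 of all 15236 genes were above 0 as well. All 3 uncoupling protein-like carriers were above 0, with Slc25a30 highest at 0.96 (0.63 to 1.29) and Slc25a27 lowest at 0.18 (-0.13 to 0.49). Of the calcium-regulated ATP-Mg/phosphate carriers, Slc25a24 was at 1.04 (0.67 to 1.43) from 91 and 169 UMIs, and Slc25a25 was at 0.24 (-0.10 to 0.57). Other proteins of mitochondrial transport also went both ways. The 21 genes of that list had a median of -0.11, with Mpc2, a subunit of the pyruvate carrier, lowest at -1.49 and Tspo, an outer membrane protein abundant in macrophages and steroid-making cells, highest at 2.44.

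The 4 iron and glutathione carriers were all above 0, with a median of 0.39 against 0.20 for all genes. Slc25a39, at 0.02 (-0.10 to 0.15), was however below 0 with TMM or DESeq2 factors. It was also below 0 without the spots rich in red blood cell genes described below (-0.11). In the 50% of spots poorest in such genes it was at -0.24, and as a mean over spots at 0.28. Slc25a37 (mitoferrin-1) and Slc25a28 (mitoferrin-2) bring iron into mitochondria, and mitoferrin-1 is the form of developing red blood cells. Slc25a37 had the highest ratio of the 42 carriers, 2.13 (1.94 to 2.31). Its control quadrants held 20.5, 19.2, 20.8 and 23.0 CPM and its transgenic quadrants 47.9, 178, 63.2 and 66.0 CPM, so 1 transgenic quadrant stood apart. Slc25a28 had a log2 ratio of 0.26 (0.11 to 0.41), close to the 0.23 median of its 100 nearest genes. Mitoferrin-1 made up 30.5% (27.6% to 33.5%) of mitoferrin UMIs in control and 61.6% (59.3% to 63.7%) in transgenic tissue.

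Red blood cell genes moved with Slc25a37. The 6 erythroid markers, among them the globins Hba-a2, Hbb-bs and Hbb-bt, made up 0.215% of control and 2.04% of transgenic UMIs. The quadrant with 178 CPM of Slc25a37 had 4.61% erythroid UMIs, and the other 3 transgenic quadrants had 0.719% to 1.49%. In 54 of 923 transgenic spots, 47 of them in 1 patch that borders an open space of the section, these genes supplied at least 10% of the UMIs. The threshold was chosen after the map of Slc25a37 had been seen. The 54 spots held 2.28% of the section's UMIs and 60.4% of its erythroid UMIs, and they held 528 of 1180 Slc25a37 UMIs (44.7%). They were spots of low depth, with a median of 5006 UMIs against 14760 in the other transgenic spots. Slc25a37 was at 1788 CPM inside them and 51.5 CPM in the other transgenic spots. Without such spots in either section its log2 ratio of transgenic over control was 1.34, and in the 50% of spots poorest in erythroid genes it was 0.89. In those poorest spots mitoferrin-1 made up 36.6% of transgenic and 27.7% of control mitoferrin UMIs.

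Other carriers also stood out in the 54 spots. Erythroid genes supplied 54.2% of the UMIs inside and 0.827% outside, which alone lowers the CPM of any other gene inside by 1.11 on the log2 scale. The comparison was therefore made with erythroid UMIs left out of the totals, a choice made after values were seen. Ucp2 was then higher inside by 3.56 (3.35 to 3.77), Slc25a39, a glutathione carrier, by 3.49 (3.19 to 3.77) and Slc25a51, which carries NAD+, by 3.22 (2.90 to 3.51). Slc25a37 was higher by 6.23 (6.06 to 6.40). These were the 4 of 24 carriers with at least 200 UMIs in the section whose interval lay above 0, which held for 4.85% of 7584 genes. An interval below 0 was found for 2 of the 24, Slc25a12 at -1.20 (-2.65 to -0.07) and Slc25a4 at -0.49 (-0.59 to -0.40), and for 6.49% of genes. Slc25a5 at -0.26 (-0.55 to 0.03) and Slc25a11 at -0.21 (-0.67 to 0.21) had intervals that included 0. In the control section, 8 spots passed the same threshold, all apart from the main body of tissue, and they held 8 Slc25a37 and 7 Ucp2 UMIs. Their median was 1103 UMIs, against 11353 in the other control spots. Without these spots in both sections, Ucp2 had a log2 ratio of 0.15 and the median of all genes was 0.21.

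**Figure D4:**
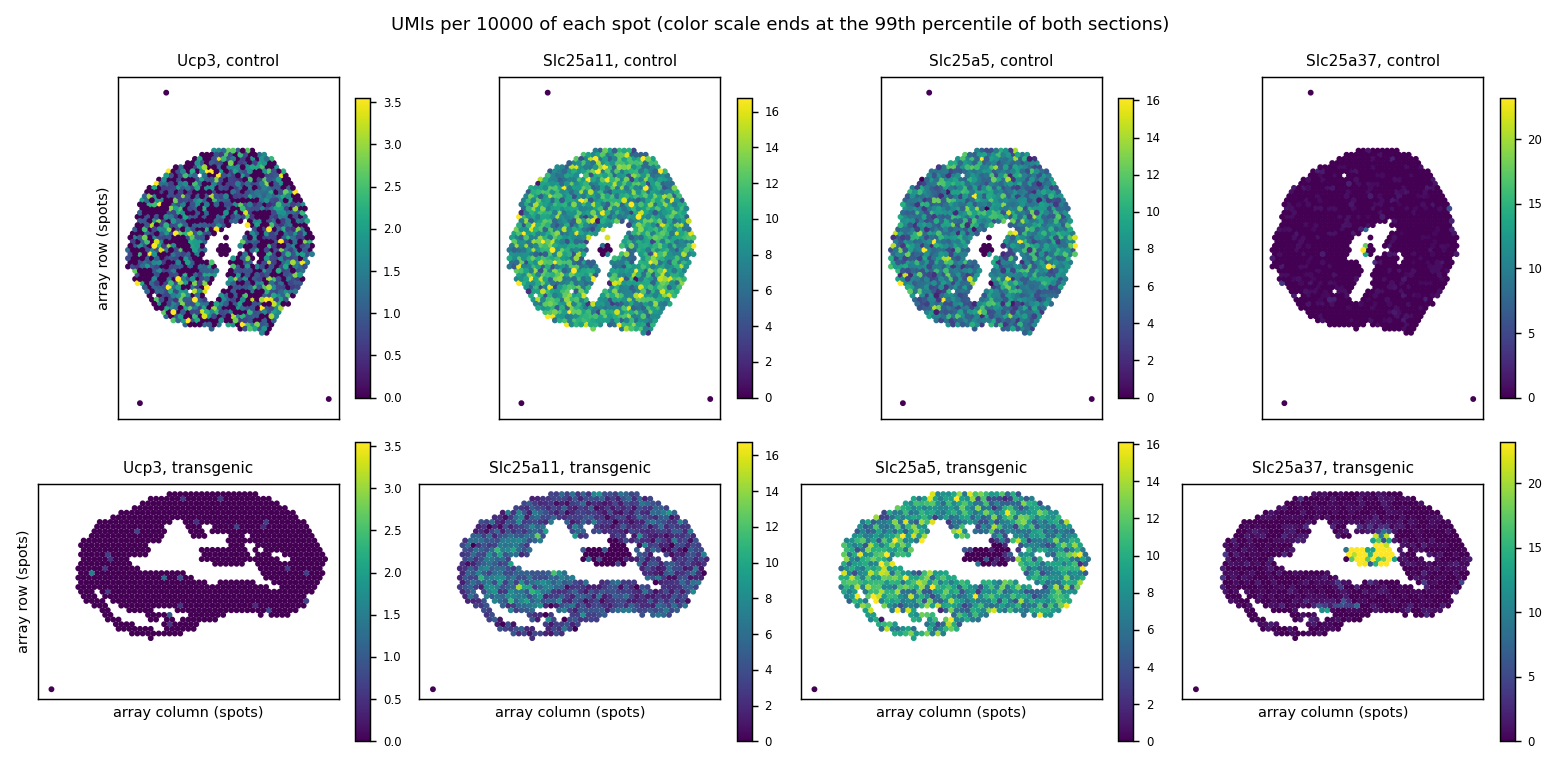
UMIs per 10000 of each spot for Ucp3, Slc25a11, Slc25a5 and Slc25a37, with the control section above and the transgenic section below, plotted by array column and row (in spots). Ucp3 is scattered over the control section and nearly absent from the transgenic one, Slc25a11 and Slc25a5 are uneven in the transgenic section, and Slc25a37 is concentrated in a patch of spots beside an open space.

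The carriers were also less evenly spread in the transgenic section. Moran's I, a score deposited by the authors that is near 0 for a gene without spatial pattern, was above 0.1 for 1 of 42 carriers (2.38%) in the control section, Ucp2 at 0.12, against 0.604% of all genes. In the transgenic section this held for 9 of 42 (21.4%), against 9.64% of all genes. Slc25a4 had 0.04 in control and 0.68 in the transgenic section, Slc25a37 had 0.03 and 0.54, Slc25a5 0.06 and 0.48, Slc25a11 0.06 and 0.36, and Slc25a20 0.02 and 0.24. Ucp3, with 24 transgenic UMIs, was at 0.03 and -0.00069.

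To relate these patterns to heart muscle, the 50% of spots richest in the 11 cardiomyocyte markers were set against the 50% poorest. Median shares of these markers were 4.39% and 3.17% in the transgenic section and 4.67% and 4.21% in control. In the transgenic section Slc25a4 had 11897 CPM in the rich and 6949 CPM in the poor spots, a log2 difference of 0.78 (0.76 to 0.79). Slc25a20 was at 0.75 (0.62 to 0.88), Slc25a11 at 0.71 (0.63 to 0.80) and Slc25a12 at 0.67 (0.50 to 0.83). Slc25a5 and Slc25a34 showed smaller differences of 0.23 each. In the control section, where the marker shares of rich and poor spots lay closer together, the same 6 genes lay between -0.08 and 0.03. Without the 54 spots rich in erythroid genes, the transgenic differences were 0.74 for Slc25a4, 0.72 for Slc25a20, 0.68 for Slc25a11 and 0.62 for Slc25a12. Slc25a37 and Ucp2 were lower in the rich spots, at -1.54 and -0.51, and at -0.26 each without those spots.

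**Figure D5:**
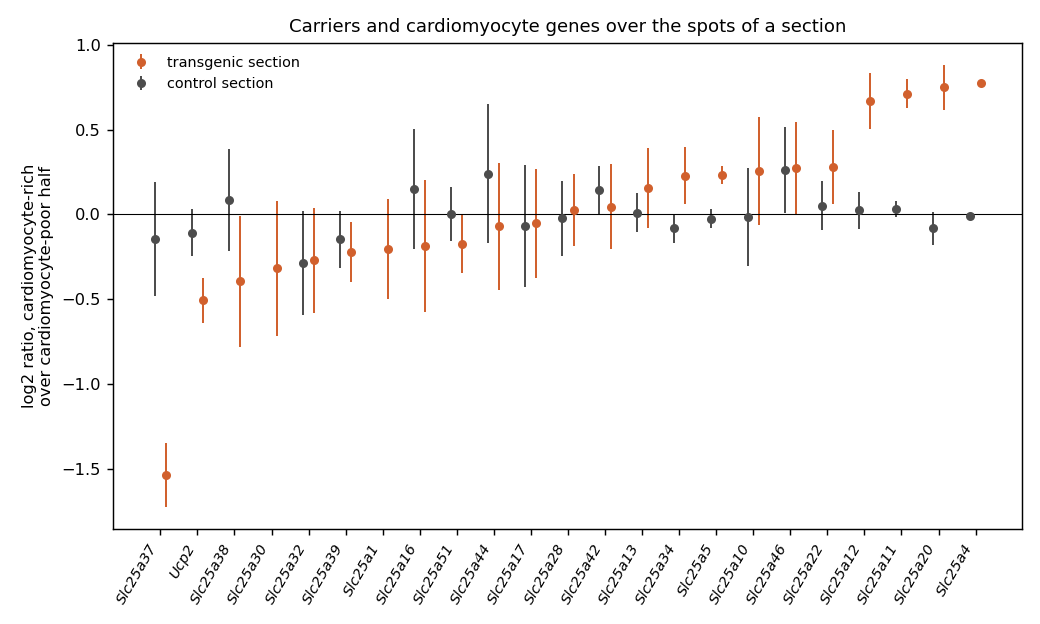
Log2 ratio of CPM in the 50% of spots richest over the 50% poorest in cardiomyocyte genes (vertical axis) for 23 carriers with at least 200 UMIs in the transgenic section, ordered by the transgenic value, with lines for the 95% interval. Control values lie near 0, while transgenic values run from -1.54 for Slc25a37 to 0.78 for Slc25a4.

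Differences between the genotypes were smaller in the spots richest in cardiomyocyte genes for some carriers and not for others. The markers that rank the spots were themselves lower in the transgenic section (median -0.42), so these spots may not be matched between sections. In those spots Slc25a4 was at -0.49, Slc25a20 at -0.26, Slc25a12 at -0.73 and Slc25a11 at -1.08, all nearer to 0 than over whole sections. The same genes differed between rich and poor spots of the transgenic section and little in control, so this is not a separate result. Ucp3 at -5.55, Slc25a33 at -2.29, Slc25a13 at -1.83 and Slc25a42 at -1.51 stayed within their counting intervals. Slc25a34 was at -1.67 there. Slc25a5 was at 0.43 in these spots.

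The transgenic heart also expressed Myh7, the fetal myosin heavy chain of the mouse ventricle, and its spots could be ordered by it. Among 885 spots with at least 20 UMIs of Myh6 and Myh7, the 442 with the higher Myh7 share (median 65.1%) were set against the other 443 (median 48.6%). Slc25a4 was lower in the high-Myh7 spots at -0.33 (-0.35 to -0.31), as were Slc25a20 at -0.28, Slc25a11 at -0.26 and Slc25a12 at -0.25 (-0.42 to -0.09). Slc25a34 was higher there at 0.22 (0.05 to 0.39), although it was among the lowest carriers between genotypes. Of 24 carriers with at least 200 UMIs, 5 had an interval below 0 and 4 above 0. The share of all genes with such intervals was not computed, so whether these counts are unusual is not known. The lowest of these carriers was Slc25a10 at -0.45 (-0.77 to -0.13) and the highest Slc25a38 at 0.42 (0.04 to 0.81). The median of these carriers was 0.01, and that of all genes with as many UMIs was 0.03. Slc25a5 made up more of the ADP/ATP carrier UMIs where Myh7 was high, since the Slc25a4 share was 90.6% in the high and 92.3% in the low spots.

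Macrophage markers were higher in the transgenic section, with all 8 above 0 and shares of 0.0292% and 0.0574% of UMIs. Fibroblast markers were higher in sum, with shares of 0.135% and 0.278%, but not evenly. All 7 were above 0, with Col1a1 highest at 2.68, but Gsn at 0.0009 and Dpt at 0.06 had intervals that included 0. Of all 15236 genes, 9636 were above 0. Endothelial and mural (vessel wall) markers had median log2 ratios of 0.02 and -0.003. The 50% of spots richest in macrophage markers were also set against the 50% poorest, a comparison chosen after values were seen. Slc25a1 was at 0.62 (0.32 to 0.93) in the rich over the poor transgenic spots, the highest of the 24 carriers compared, whereas Slc25a37 was at -1.18 and Slc25a4 at -0.24. In the control section Slc25a1 was at 0.31 (-0.19 to 0.81). The 54 spots rich in erythroid genes, with 44.7% of transgenic Slc25a37 UMIs, were not left out of this comparison. The part of macrophages, fibroblasts or red blood cells in the differences between genotypes was not tested.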

How the data were processed

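Reads were processed by the authors in Space Ranger 2.0.0. For each spot over tissue they deposited unnormalized UMI counts of every gene, in 1 control and 1 transgenic section. Moran's I is a score the authors deposited for each gene and section, used as given. UMI counts were summed over the spots of a section and divided by its total. Since each section is 1 sample, no p-value was computed. Intervals were exact (conditional binomial for ratios, Clopper–Pearson for shares) and cover counting error only. Their coverage was checked on simulated counts that held counting error only, so that check does not bear on spread between spots, sections or animals. A count of 0 allows up to 3 counts, or 0.209 CPM in control and 0.232 CPM in transgenic. Thinning to 8134 UMIs per spot left out 140 control and 78 transgenic spots. The carriers, gene lists and substrate classes were chosen with earlier results of these data known. Named genes were the uncoupling proteins, Slc25a11, the ADP/ATP carriers, any carrier of at least 1000 CPM, the highest and lowest carriers overall and by class among those with at least 200 UMIs, the highest and lowest of each partner list, and lists of 5 or fewer genes in full. Genes named for a pattern within a section, Slc25a2, Slc25a18, Top2b, Tnnt2, Cidea, Dio2 and Elovl3 were chosen after their values were seen. Some genes under this rule are counted but not reported here by name. Alternatives were scaling by edgeR 4.0.16 and DESeq2 1.42.0 factors, other totals, subsets of spots, an added CPM and other UMI minimums. Promoters came from RefSeq on GRCm38.p6. Python 3.11.15 was used.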

Additional observations from a re-analysis of the deposited data

How the results depend on the processing

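No paired analysis was possible because there was 1 section for each genotype. No carrier whose interval lay apart from 0 changed direction under the 11 alternatives tried. The median log2 ratio of the carriers was -0.27 with TMM factors, -0.26 with DESeq2 size factors and -0.20 with totals that leave out the 50 most abundant genes. These scalings moved all genes alike, whose median was 0.05, 0.05 and 0.12, and they put 27, 27 and 26 carriers below 0 in place of 24. The carrier median was -0.13 in the spots richest in cardiomyocyte genes, -0.16 away from the tissue edge, -0.17 in the spots poorest in erythroid genes and -0.14 without spots of at least 10% erythroid UMIs. It was -0.0928 with 1 CPM added, and -0.0861 both with all 48 carriers of at least 1 UMI and with the 32 of at least 200 UMIs. With all 48 carriers, 5 were at least 2-fold higher, in place of 3, the added ones being Slc25a41 with 2 and 6 UMIs and Slc25a53 with 4 and 13. Among transgenic spots, Slc25a4 made up 92.7% of ADP/ATP carrier UMIs in those richest in cardiomyocyte genes and 91.3% in those poorest in erythroid genes. The numbers at least 2-fold lower stayed between 9 and 11, but the carriers counted were not always the same. In the spots richest in cardiomyocyte genes, Slc25a12 at -0.73, Slc25a22 at -0.96 and Slc25a31 at -0.81 were among those that left. Others entered there, such as Slc25a18 at -1.81, which had 23 and 17 UMIs over whole sections. Slc25a12, Slc25a22 and Slc25a31 lay close to the 2-fold line. On the higher side, Slc25a24 was at 1.04 over whole sections, 0.89 with TMM or DESeq2 factors and 0.81 as a mean over spots. Slc25a37 was at 0.89 in the spots poorest in erythroid genes. The carriers at least 2-fold higher thus also changed with the processing. The alternatives on detached spots, erythroid-rich spots and totals without erythroid UMIs were chosen after seeing the data.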
